A study of Rattus norvegicus with 6 samples.

Results

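Fragments of 5 neighbouring mitochondrial tRNAs of rat muscle, mt-Trp-TCA, mt-Ala-TGC, mt-Asn-GTT, mt-Cys-GCA and mt-Tyr-GTA, were described in small RNA libraries, together with the spacer that separates mt-Asn from mt-Cys. Every distinct read sequence aligned to the mature or precursor form of these tRNAs was taken, except 8 sequences that also aligned to a nuclear tRNA, which left 7480 of the 77567 distinct sequences in the series, each counted once. The 5 tRNAs are part of 22 mitochondrial tRNAs in the table. There were 3 experimental libraries and 3 control libraries, grouped by their titles alone. All 6 libraries were labelled as muscle of Lewis rats aged 6 to 8 weeks. The series' title concerns acute rejection of composite tissue grafts, while its design text speaks of UV-damaged mouse skin and a skin phenotype label reads UV damage in the experimental and normal in the control samples. What was done to the experimental animals therefore could not be settled, and the contrast is called experimental against control throughout. Nothing in the labels says that the libraries came from separate animals, so a p-value here speaks only for differences among 6 libraries and may reflect technical spread.

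Mitochondrial tRNAs are cut out of long transcripts of both strands of the circular genome, at their 5′ ends by mitochondrial RNase P and at their 3′ ends by ELAC2, after which TRNT1 adds the bases CCA. The mt-Ala, mt-Asn, mt-Cys and mt-Tyr genes are read from one strand and mt-Trp from the other. The spacer between mt-Asn and mt-Cys is known in mammals as the origin of light-strand replication, which folds into a stem and loop. Short pieces of tRNAs, cut from mature molecules or from precursors, are common in small RNA libraries.

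The reference stretches that carry the results were read from the deposited table. The tRNA set's coordinates are given as in the table, on chromosome M; the submitters' processing notes name mm9, a mouse build, which does not match a rat series, so the build is not settled. mt-Trp-TCA lies on the plus strand at 4943 to 5008, and mt-Ala-TGC (5010 to 5078), mt-Asn-GTT (5081 to 5152), the 32-base spacer (5153 to 5184), mt-Cys-GCA (5185 to 5252) and mt-Tyr-GTA (5256 to 5321) lie on the minus strand. Positions are counted from 1 at the 5′ end of each tRNA or, in the spacer, at the base next to mt-Cys, so that spacer position 33 is base 1 of mt-Asn. Capitals mark positions 53 of mt-Tyr, 16, 51 and 53 of mt-Cys and 1 and 9 of mt-Asn, where libraries departed from the reference, the 9 paired bases on each side of the spacer stem, and the most abundant 3′ fragment of mt-Trp. The mature tRNAs are shown with the CCA that the reference adds.
mt-Tyr-GTA: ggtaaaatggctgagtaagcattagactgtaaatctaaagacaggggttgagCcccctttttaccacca
mt-Cys-GCA: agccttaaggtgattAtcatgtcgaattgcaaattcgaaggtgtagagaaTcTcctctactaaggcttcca
spacer: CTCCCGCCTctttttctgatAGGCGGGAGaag
mt-Asn-GTT: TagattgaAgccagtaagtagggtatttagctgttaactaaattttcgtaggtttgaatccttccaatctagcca
mt-Trp-TCA: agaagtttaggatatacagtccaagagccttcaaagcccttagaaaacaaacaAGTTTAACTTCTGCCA

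The libraries held 876494, 1927269 and 1866227 tRNA-aligned reads in the experimental group and 550004, 740627 and 316990 in the control group. Before the results, one property of the libraries has to be stated: at 4 positions of mt-Tyr and mt-Cys nearly all control reads carried another base than the reference, and a smaller part of the experimental reads did, although all libraries have the same strain label. In the other mitochondrial tRNAs, 1 of 623 positions with at least 30 reads in each library had group means at least 50 percentage points apart (15 of these 17 tRNAs had such covered positions). The cause was not tested. The table keeps reads with at most 1 mismatch, so a read over 2 differing bases is not in it, and counts of reads over such positions cannot be compared as levels. For mt-Cys and mt-Tyr this touches shares of cluster reads, sums and fragments alike.

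The 5 tRNAs and the spacer took overlapping parts of the mitochondrial reads in the 2 groups. Their reads made up 26%, 23.8% and 24.6% of mitochondrial tRNA reads in experimental libraries and 25.8%, 22.1% and 21.7% in control libraries (24.8 ± 1.07% against 23.2 ± 2.25%, SD, n = 3 each; two-sided exact permutation p = 0.3). Of all tRNA-aligned reads they were 4.05%, 0.585% and 2.04% in experimental libraries and 1.45%, 3.50% and 3.8% in control libraries (exact permutation p = 0.7; with 3 against 3 the smallest possible p is 0.1). Experimental replicate 2 was lowest, and it was lowest in all mitochondrial reads too, at 2.46% of tRNA-aligned reads. The group means differed by -0.691 percentage points (experimental minus control), and by 0.129 without that library. In bulk muscle, fewer cells of a type and less RNA per cell cannot be told apart in these shares.

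Within the cluster the reads were spread differently. mt-Cys, the tRNA for cysteine, held 21.9%, 16.6% and 19.98% of cluster reads in experimental libraries and 6.00%, 7.57% and 6.89% in control libraries, a share that includes reads over positions 16, 51 and 53. The spacer held 13.6%, 8.66% and 7.87% in experimental libraries and 22.4%, 19.2% and 29.1% in control libraries. For both elements the groups did not overlap, in opposite directions, and mt-Asn, the tRNA for asparagine, did not overlap either, at 5.70% to 7.75% in experimental libraries and 2.51% to 3.29% in control libraries. Mature mt-Trp, the tRNA for tryptophan, supplied the largest share in every library, 42.8% to 53.4% in experimental libraries and 42.8% to 54.7% in control libraries. mt-Tyr (tyrosine) held 3.42% to 5.94% in experimental libraries and 4.52% to 5.63% in control libraries, and mt-Ala (alanine) at most 1.87% in experimental libraries and at most 2.22% in control libraries, with overlap.

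**Figure D1:**
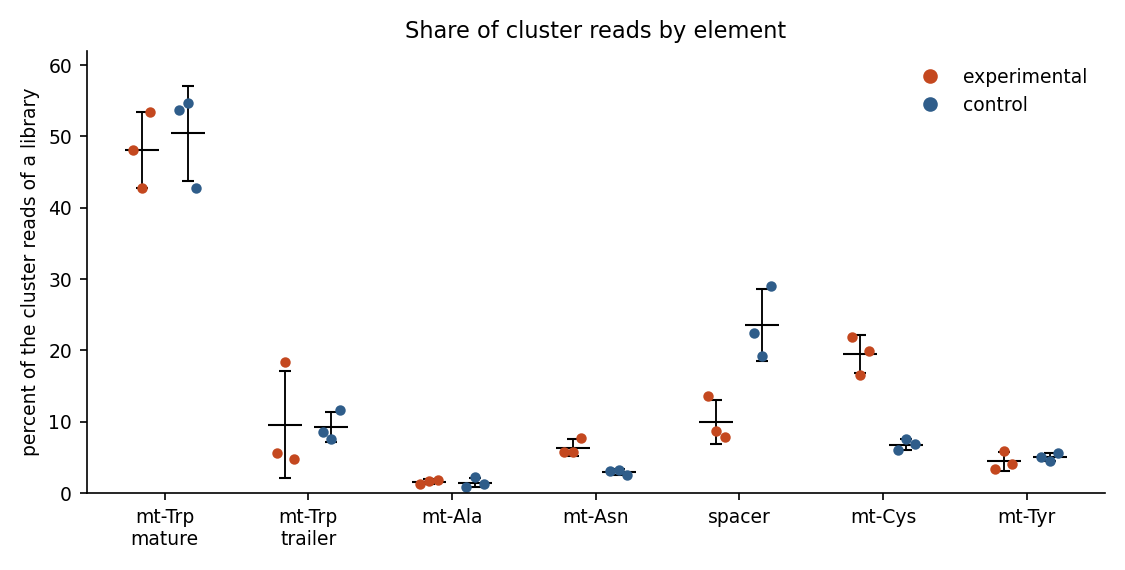
Share of the cluster's reads (percent, linear axis) on each element, experimental libraries left and control libraries right of each pair; points are libraries, and bars the mean and SD of 3. mt-Cys lies between 16.6% and 21.9% in experimental libraries, above all control libraries, and the spacer between 7.87% and 13.6%, below all control libraries.

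Exact matches to the reference made up 76.6%, 73.4% and 74.0% of cluster reads in experimental libraries and 64.9%, 61.0% and 59.3% in control libraries, with no overlap. The gap was widest in the spacer, with 55.4% to 61.1% exact matches in experimental libraries and 17.5% to 20.2% in control libraries. On mt-Cys exact matches were 71.9% to 78.0% in experimental libraries and 51.8% to 52.7% in control libraries. On mt-Tyr they were 71.0% to 76.3% in experimental libraries and 52.7% to 61.8% in control libraries. On reads of the precursor tail behind mt-Trp they were 73.2% to 78.7% in experimental libraries and 56.9% to 64.8% in control libraries. On mature mt-Trp, mt-Asn and mt-Ala the groups overlapped.

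Summed over all its fragments, no tRNA of the cluster passed a test of its level. The sums gave log2 fold changes, experimental over control, of -0.42 for mt-Trp, -0.04 for mt-Ala, -0.72 for mt-Asn, -0.01 for mt-Cys and -0.56 for mt-Tyr (standard errors 0.67 to 0.92; limma voom over 69 anticodon sums, adjusted p 0.75 to 0.99). The 95% interval for mt-Cys ran from -2.05 to 2.03 and that for mt-Tyr from -2.05 to 0.92, so changes of several fold either way were not detectable here, and the sums of mt-Cys and mt-Tyr rest in part on reads over positions 16, 51 and 53 of mt-Cys and 53 of mt-Tyr. Of the 69 sums, 0% were called (6 had an unadjusted p under 0.05, and limma's trend test called 2, none of them in the cluster). Spacer reads are split equally between mt-Asn and mt-Cys in these sums. With mature alignments alone the log2 fold changes of mt-Asn and mt-Cys were 0.85 and 1.27 (limma voom, adjusted p = 0.69 and 0.54). The other 17 mitochondrial sums had a median log2 fold change of -0.22, with 6 above 0.

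Single fragments moved in both directions. Of 179 cluster sequences with enough reads to test, 14 were higher and 44 lower in experimental libraries at an adjusted p under 0.05 (limma voom, spread pooled over all sequences). Over all 2226 sequences tested in the series, 18.7% were called higher and 7.64% lower, so the cluster had a smaller part of higher calls (7.82%) and a larger part of lower calls (24.6%). The other mitochondrial tRNAs had 7.4% higher and 15% lower, so their part of higher calls was near the cluster's. Nuclear sequences had 24.8% higher and 2.43% lower. The median log2 fold change was -0.67 in the cluster, -0.52 over 608 sequences of the other mitochondrial tRNAs and 0.21 over all sequences tested. Values of the groups did not overlap for 80 of the 179, against 40.7% of all sequences. With each sequence's own spread, 2 cluster sequences were higher and 3 lower, where 0.674% and 0.359% of all sequences were called. The number of higher calls was 8 of 205 tested without experimental replicate 1 and 8 of 217 without replicate 3, and 70 of 283 without experimental replicate 2. It was 69 of 319 without control replicate 1, 62 of 273 without control replicate 2 and 44 of 273 without control replicate 3, with other numbers tested because the read filter was applied again. Lower calls numbered 35 to 55 without any other single library and 71 without control replicate 1.

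Sequences that carry a mismatch and sequences that match exactly did not have the same balance. Of 97 exact matches tested, 13 were higher and 13 lower, and of 82 sequences with a mismatch, 1 was higher and 31 lower. Many of the lower mismatch forms lie at few sites. Among them, 16 were spacer reads that end past the spacer. A further 3 cover position 16, 51 or 53 of mt-Cys, and 4 cover position 53 of mt-Tyr. The balance of mismatch forms and exact matches over the whole series was not counted. The spacer had 3 higher and 22 lower of 40 tested, mt-Cys 7 and 5 of 23, mt-Tyr 2 and 4 of 13, mt-Asn 2 and 0 of 14, mt-Trp 0 and 13 of 85, and mt-Ala 0 and 0 of 4. The tRNAs read from the same strand as mt-Ala (8 of the 22, with mt-Gln, mt-Ser-TGA, mt-Glu and mt-Pro), spacer sequences included, had 29 higher and 40 lower of 142 tested, and the 14 others 30 and 95 of 645. The spacer's 22 lower calls are thus among those 40. A single base difference splits 1 place into 2 sequences, so these counts are not independent, and 82 of the 179 are mismatch forms.

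**Figure D2:**
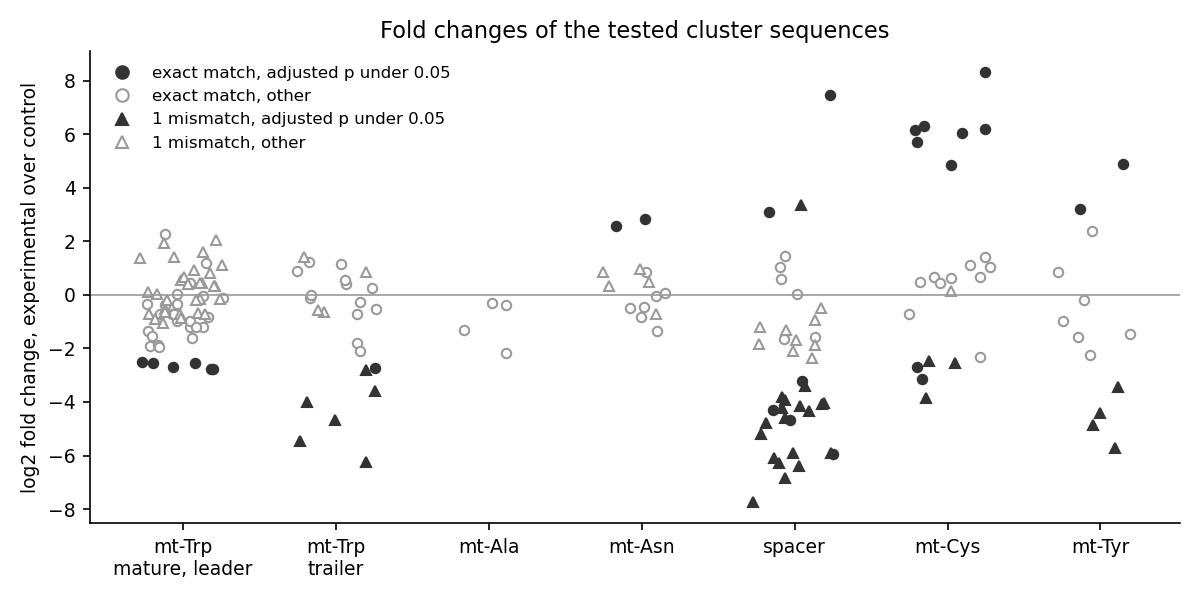
Log2 fold change, experimental over control, of the 179 tested cluster sequences by element; circles match the reference, triangles carry 1 mismatch, and filled symbols have an adjusted p under 0.05 (limma voom). The lower calls of the spacer are mostly triangles, and the higher calls of mt-Cys are all circles.

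The main product of the cluster was a short 3′ fragment of mt-Trp. The fragment mt-Trp-TCA 54-69, printed in capitals above, ends in the added CCA. It had 8816, 1889 and 7984 reads in experimental libraries and 1830, 4453 and 2450 in control libraries. Scaled to library size (CPM, with the scaling factors of the fit), these were 7627, 1820 and 4801 CPM in experimental libraries and 3544, 5787 and 6853 CPM in control libraries, so the groups overlapped (log2 fold change -0.36, SE 0.89, adjusted p = 0.80 in limma voom). A longer form, mt-Trp-TCA 49-69, had 833, 234 and 655 CPM in experimental libraries and 728, 1183 and 817 CPM in control libraries, again with overlap (log2 fold change -0.82, adjusted p = 0.52 in limma voom). Longer 3′ fragments that start further upstream were lower in experimental libraries: 6 of them (mt-Trp-TCA 39-69, 41-69, 45-69, 46-69, 47-69 and 47-68, chosen after their values were seen) were called without overlap, with log2 fold changes from -2.79 to -2.52, and none was called with its own spread. The most abundant of these, mt-Trp-TCA 46-69, had 119, 27.9 and 95.6 CPM in experimental libraries and 227, 789 and 369 CPM in control libraries (log2 fold change -2.55 with an SE of 0.88; adjusted p = 0.019 in limma voom; 0.17 with its own spread).

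The most common start of mt-Trp 3′ fragments overlapped between groups, and 3 rarer ones did not. Reads that began at position 54 were 70.6%, 57.0% and 64.0% of them in experimental libraries and 51.8%, 44.2% and 60.7% in control libraries. Starts at position 46 were 0.971% to 1.33% in experimental libraries and 3.23% to 6.38% in control libraries. Starts at position 50 were also a smaller part in experimental libraries, 2.86% to 3.98% against 4.19% to 7.29% in control libraries, and starts at position 55 a larger part, 4.94% to 5.61% against 2.94% to 3.77%. The full CCA end was present on 80.3%, 78.0% and 68.3% of mt-Trp 3′ reads in experimental libraries and on 87.3%, 74.8% and 85.1% in control libraries, with overlap, as on mt-Ala. The CCA share was lower in experimental libraries without overlap on mt-Asn (53.4%, 60.7% and 22.9% in experimental libraries and 78.05%, 65.3% and 70% in control libraries) and mt-Cys (71.5%, 69.2% and 52.04% in experimental libraries and 86.8%, 78.2% and 84.9% in control libraries). On mt-Tyr it was 85.9% to 89.1% in experimental libraries and 90.5% to 96.9% in control libraries. A read with a changed base at position 53 of mt-Tyr or mt-Cys could not be kept with a changed end. The CCA shares of these 2 tRNAs thus rest in part on which reads were kept. In control replicate 2, 14.7% of mt-Trp 3′ reads ended in CCG in place of CCA, against 0.663% and 0.808% in the other control libraries and 2.84% to 4.39% in experimental libraries. The same library stood out in CCG ends on mt-Ala (14%), mt-Asn (14.7%) and mt-Cys (12%). On mt-Tyr its share was 7.15%, against 3.40% to 5.27% in experimental libraries.

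Behind the 3′ end of mt-Trp lay reads of the cut-off precursor tail, the trailer, whose bases from 2 on are antisense to mt-Ala. Trailer reads were 5.67%, 18.3% and 4.85% of cluster reads in experimental libraries and 8.63%, 7.53% and 11.6% in control libraries, with experimental replicate 2 above all others. Reads that began exactly at trailer base 1, the position of the 3′ cut, made up 53.3% to 68.8% of them in experimental libraries and 64.5% to 83.9% in control libraries. Trailer fragments with and without a changed base near the 3′ end are shown, the capital marking a base that is not the reference's.
mt-Trp-TCA trailer 1-17: ataaggactgtaagact
mt-Trp-TCA trailer 1-19: ataaggactgtaagactat
mt-Trp-TCA trailer 1-20 T19A: ataaggactgtaagactaAa
mt-Trp-TCA trailer 1-15 G14C: ataaggactgtaaCa

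A final A that the reference does not have was less common on experimental trailer reads. Its share was 5.61%, 6.45% and 6.16% in experimental libraries and 23.1%, 13.7% and 17.8% in control libraries, with no overlap. The order was the opposite, also without overlap, on spacer reads that end within the spacer, with 9.93%, 11.5% and 8.48% in experimental libraries and 5.24%, 2.74% and 4.30% in control libraries. It was the opposite too on internal and 5′ reads of the mature tRNAs, with 3.79%, 4.03% and 3.27% in experimental libraries and 1.21%, 1.38% and 2.68% in control libraries. A read with a changed base elsewhere, such as most control reads over positions 16 or 51 of mt-Cys, could not be kept with such a final A. The shares on mature reads thus rest in part on which reads were kept. The fragment mt-Trp-TCA trailer 1-20 T19A, which has the A 1 base before its end and so is not part of the trailer share, had 0, 0 and 0.60 CPM in experimental libraries and 46.5, 31.2 and 53.1 CPM in control libraries. Its log2 fold change was -6.23 (with an SE of 1.01; adjusted p = 5.7e-08 in limma voom; 0.032 with its own spread). The fragment mt-Trp-TCA trailer 1-15 G14C had 0.87, 0 and 1.20 CPM in experimental libraries and 21.3, 18.2 and 39.2 CPM in control libraries, a log2 fold change of -4.68 (with an SE of 1.03; adjusted p = 1.2e-04 in limma voom; 0.067 with its own spread). Of 3 exact fragments chosen after their values were seen, 1 passed the test. mt-Trp-TCA trailer 1-16 had 24, 20 and 23 reads in experimental libraries and 50, 57 and 87 in control libraries (log2 fold change -2.75 with an SE of 0.91; adjusted p = 0.014 in limma voom; 0.098 with its own spread). mt-Trp-TCA trailer 1-17 had 255, 253 and 269 reads in experimental libraries and 25, 84 and 53 in control libraries (log2 fold change 1.15, adjusted p = 0.35 in limma voom), and its CPM did not overlap. mt-Trp-TCA trailer 1-19 had 205, 149 and 158 reads in experimental libraries and 64, 209 and 114 in control libraries (log2 fold change -0.72, adjusted p = 0.58 in limma voom), with overlap.

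Spacer reads covered the loop and the second arm of the stem, starting near position 12 and ending either inside the second arm or just past the spacer. The sequences below are the 3 most abundant by the mean of the 6 libraries and, chosen after their values were seen, a pair that ends inside the arm.
spacer 13-33 T33A: tttctgataggcgggagaagA
spacer 13-34 T33A: tttctgataggcgggagaagAa
spacer 12-27: ttttctgataggcggg
spacer 12-26: ttttctgataggcgg
spacer 10-26: ctttttctgataggcgg

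Spacer 13-33 T33A, in which the base after the spacer is A where mt-Asn begins with T, had 31.1, 8.67 and 13.2 CPM in experimental libraries and 1228, 1862 and 2503 CPM in control libraries. Its log2 fold change was -6.83 (with an SE of 0.91; adjusted p = 2.1e-11 in limma voom; 0.037 with its own spread), and -7.53 without experimental replicate 1. Spacer 13-34 T33A ends in 1 more A, which is also the reference's base, and had 5.19, 0.96 and 2.41 CPM in experimental libraries and 259, 784 and 1010 CPM in control libraries. Its log2 fold change was -7.72 (with an SE of 0.98; adjusted p = 4.3e-12 in limma voom; 0.053 with its own spread; -8.42 without experimental replicate 1). Neither form overlapped between the groups.

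Spacer 12-27, which ends inside the stem, had 371, 105 and 90.8 CPM in experimental libraries and 134, 160 and 157 CPM in control libraries, with overlap (log2 fold change 0.02, adjusted p = 0.99 in limma voom). Spacer 12-26 had 635, 150 and 363 reads in experimental libraries and 9, 42 and 9 in control libraries, and its log2 fold change was 3.09 (with an SE of 0.91; adjusted p = 0.0052 in limma voom; 0.12 with its own spread). Spacer 10-26 had 546, 63 and 267 reads in experimental libraries and none in any control library, at least 127-fold higher when set against 3 counts over the control group (adjusted p = 1.7e-11 in limma voom; 0.068 with its own spread).

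The groups used different start and end positions. Position 12 was the start of 42.1%, 42.3% and 37.4% of spacer reads in experimental libraries and of 8.88%, 5.35% and 3.31% in control libraries. Position 13 was the start of 8.62%, 16.7% and 9.13% in experimental libraries and of 59.3%, 59.9% and 53.2% in control libraries. Starts at positions 8 to 11 held 31.0%, 20.8% and 23.3% in experimental libraries and 0.506%, 0.462% and 0.285% in control libraries. All 3 shares were without overlap, and they lie at a run of T from position 11 to 15.

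Read ends differed as much. Positions 26 and 27 ended 63.2%, 69% and 49.2% of spacer reads in experimental libraries and 12.8%, 12.1% and 9.42% in control libraries. The first 2 bases of mt-Asn ended 18.4%, 15.7% and 20.4% in experimental libraries and 76.3%, 71.9% and 74.7% in control libraries. Read starts differed among reads with the same end as well: of reads that end at 26 or 27, 9.94%, 19.7% and 12.3% started at position 13 in experimental libraries and 52%, 63.2% and 74.2% in control libraries. At position 12 the gap among these reads was smaller than over all spacer reads. It was the start of 45.4%, 50.3% and 46.3% in experimental libraries and of 40.1%, 32.2% and 21.5% in control libraries.

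**Figure D3:**
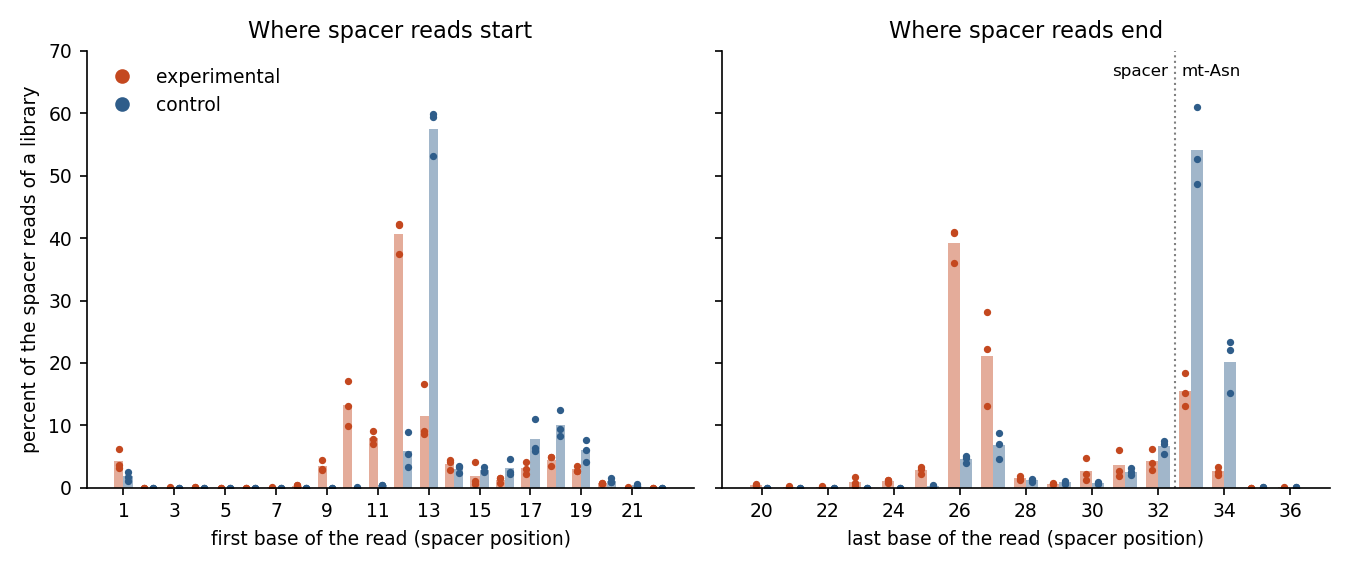
Share of spacer reads (percent) that start (left) and end (right) at each position, counted from the base next to mt-Cys; bars are means of 3 libraries, points are libraries, experimental left of control at each position, and the dotted line is the border to mt-Asn. Position 12 is the most common start in experimental libraries and 13 in control libraries, and most reads end at 26 and 27 in experimental libraries and at 33 and 34 in control libraries.

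The A at the border depended on the side from which it was read. Among spacer reads that end on the first 2 bases of mt-Asn, 39.8%, 45.1% and 25.8% in experimental libraries and 86.2%, 87.3% and 81.9% in control libraries had A in place of T at base 1 of mt-Asn. Among reads that start at base 1 of mt-Asn, at most 0.196% in experimental libraries and at most 1.52% in control libraries differed from the reference there. Reads that ran from the spacer past base 2 of mt-Asn were rare, with 11, 5 and 7 in experimental libraries and 2, 12 and 4 in control libraries. Over all spacer reads, 7.35%, 7.06% and 5.26% in experimental libraries and 65.7%, 62.7% and 61.1% in control libraries carried this A.

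Reads that span the run of T with bases on both sides were few in control libraries. Those that cover positions 10 to 17 numbered 1187, 147 and 611 in experimental libraries and 2, 0 and 0 in control libraries, while those that cover 13 to 26 numbered 3715, 753 and 1976 in experimental libraries and 1222, 3250 and 1979 in control libraries. A read that ends in the run went the other way: spacer 1-15 T15C, chosen after its values were seen, had 5, 4 and 9 reads in experimental libraries and 15, 93 and 50 in control libraries (log2 fold change -4.02 with an SE of 0.98; adjusted p = 5.7e-04 in limma voom; 0.091 with its own spread). The table lists substitutions only and at most 1 of them, so a control read with T33A and a further difference, or with bases added or missing in the run, would not be in it; how far this bears on the start positions was not tested.

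The 3′ part of mt-Cys came in 2 forms that followed the libraries' bases. Its fragments are shown with a capital at the base that differs from the reference.
mt-Cys-GCA 49-71: aatctcctctactaaggcttcca
mt-Cys-GCA 38-55: aaggtgtagagaatctcc
mt-Cys-GCA 54-71: cctctactaaggcttcca
mt-Cys-GCA 53-71 T53C: Ccctctactaaggcttcca
mt-Cys-GCA 25-53 T51C: aattgcaaattcgaaggtgtagagaaCct

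The exact fragments mt-Cys-GCA 49-71 and 38-55 cross positions 51 and 53. A control copy with the changed base at both positions was not kept. The fold bounds and p-values below are thus for these exact sequences and do not compare levels of the fragments. The first had 833, 128 and 263 CPM in experimental libraries and no read in control libraries, at least 224-fold higher against 3 counts over the control group (adjusted p = 7.8e-14 in limma voom; 0.053 with its own spread). Its fitted log2 fold change was 8.31, and ran from 7.39 without experimental replicate 1 to 9.0 without experimental replicate 2. The fragment 38-55 had 161, 28 and 145 reads in experimental libraries and none in control libraries, at least 46.3-fold higher (adjusted p = 4.5e-08 in limma voom; 0.068 with its own spread; fitted log2 fold change 6.18, 5.51 without experimental replicate 1 and 6.92 without experimental replicate 2).

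Some fragments that start at or behind position 53 were lower in experimental libraries. mt-Cys-GCA 54-71 had 72.7, 55.9 and 45.1 CPM in experimental libraries and 271, 633 and 727 CPM in control libraries, a log2 fold change of -3.13 (with an SE of 0.88; adjusted p = 0.0033 in limma voom; 0.070 with its own spread). mt-Cys-GCA 53-71 T53C had 17.3, 22.2 and 11.4 CPM in experimental libraries and 161, 226 and 389 CPM in control libraries, a log2 fold change of -3.86 (with an SE of 0.90; adjusted p = 3.5e-04 in limma voom; 0.059 with its own spread). Others behind position 53 did not pass the test: mt-Cys-GCA 56-71, chosen after its values were seen, had 107, 42.4 and 55.3 CPM in experimental libraries and 19.4, 75.4 and 39.2 CPM in control libraries, with overlap (log2 fold change 0.66, adjusted p = 0.63 in limma voom). The internal fragment 25-53 T51C had 3.46, 5.78 and 4.81 CPM in experimental libraries and 15.5, 32.49 and 44.8 CPM in control libraries (log2 fold change -2.54, adjusted p = 0.045 in limma voom). That call was lost without any 1 of 5 libraries, all but control replicate 1, and with library totals in place of scaling factors.

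The bases behind these forms were read position by position. At position 51, T51C and other changes were on 0.614%, 1.66% and 1.29% of 4071, 722 and 3487 reads in experimental libraries and on 100%, 98.2% and 94.1% of 15, 55 and 34 reads in control libraries. At position 16, changes, nearly all A16T, were on 4.40%, 18.6% and 14% of 614, 226 and 820 reads in experimental libraries and on 100% of 28, 169 and 23 reads in each control library. These positions were chosen after their values were seen, since control reads there were too few for the rule of 30 reads in each library. Pooled, the shares were 0.990% in experimental libraries and 97.1% in control libraries at position 51 (95% Wilson intervals 0.798% to 1.23% and 91.9% to 99.0%, counting error only).

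In control libraries position 53 was read mostly at the start of reads. Reads over it numbered 4289, 799 and 3654 in experimental libraries and 109, 243 and 188 in control libraries. Of reads that begin there, 26%, 52% and 48.6% of 100, 50 and 70 in experimental libraries and 100%, 100% and 99.3% of 92, 184 and 149 in control libraries had a changed first base, mostly T53C. These shares hold only for reads that begin at 53, a small part of the experimental reads over it. A control read with the changed base at both 51 and 53 would carry a pair of differences and was not kept. Reads over both positions numbered 4170, 740 and 3555 in experimental libraries and 15, 55 and 34 in control libraries. Of these control reads, 100%, 98.2% and 94.1% had their 1 difference at position 51, and so the reference base at 53. Over positions 55 to 68, behind the differing bases, coverage was 2662, 267 and 983 CPM of tRNA-aligned reads in experimental libraries and 589, 1462 and 1760 CPM in control libraries, with overlap.

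Starts of mt-Cys 3′ fragments are given for the reads that were kept. A 3′ fragment that starts at 51 or before crosses both 51 and 53, and a control copy with both differences was not kept. Shares of starts and ends, also at 54 and 56, therefore do not compare where fragments were cut in the 2 groups. Position 49 began 56.9%, 35.1% and 46.6% of them in experimental libraries and none in control libraries, and position 54 began 4.86%, 18.5% and 9.20% in experimental libraries and 52.6%, 59.3% and 60.0% in control libraries. Position 56 began 9.04% to 11.3% in experimental libraries and 3.64% to 6.45% in control libraries. Internal fragments ended at position 52, between the differing bases, in 8.51% to 9.42% of cases in experimental libraries and 27.8% to 37.4% in control libraries. Not every mt-Cys difference lay over these bases. mt-Cys-GCA 25-47, which was called higher (log2 fold change 4.83, adjusted p = 3.1e-05 in limma voom; 0.12 with its own spread), ends before position 51 and was chosen here after its values were seen; it was the only called higher mt-Cys sequence that covers none of positions 16, 51 and 53.

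**Figure D4:**
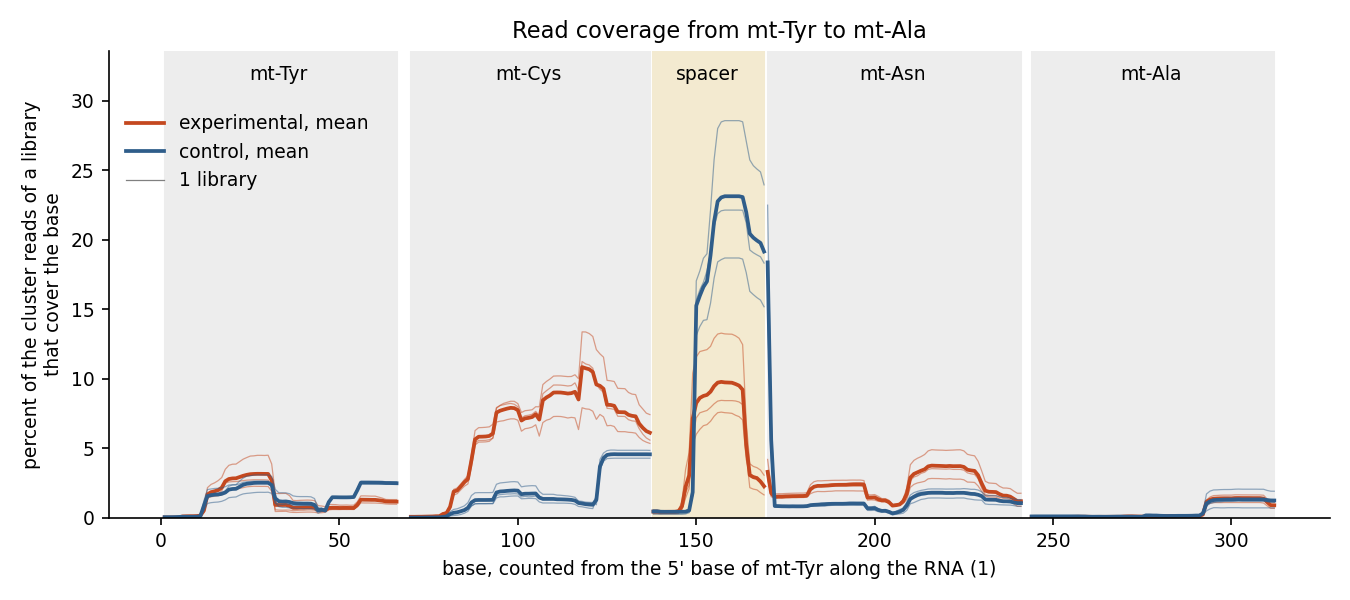
Percent of each library's cluster reads that cover each base from the 5′ end of mt-Tyr to the 3′ end of mt-Ala, along the RNA; thick lines are group means and thin lines are libraries, experimental in red and control in blue. Experimental libraries cover most of mt-Cys, control coverage of mt-Cys steps up only behind position 53, and spacer coverage in control libraries runs on to the border with mt-Asn.

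mt-Tyr fragments split at position 53 in the same manner. Changes there, mostly C53G, were on 11.8%, 20% and 15.3% of 178, 95 and 203 reads in experimental libraries and on 100%, 100% and 99.4% of 116, 379 and 176 reads in control libraries, with no overlap (exact permutation p = 0.1, the smallest possible). The 3′ fragments with and without the change are shown with position 53 in capitals where it differs.
mt-Tyr-GTA 47-69: gttgagccccctttttaccacca
mt-Tyr-GTA 48-69 C53G: ttgagGcccctttttaccacca
mt-Tyr-GTA 45-69 C53G: gggttgagGcccctttttaccacca
mt-Tyr-GTA 13-31: gagtaagcattagactgta

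The exact fragment mt-Tyr-GTA 47-69 had 31.1, 25.05 and 27.7 CPM in experimental libraries and no read in control libraries, at least 15.3-fold higher (adjusted p = 2.9e-05 in limma voom; 0.032 with its own spread). The C53G fragment 48-69 had 1.73, 0 and 4.81 CPM in experimental libraries and 50.3, 134 and 111.9 CPM in control libraries, a log2 fold change of -5.72 (with an SE of 0.99; adjusted p = 5.0e-07 in limma voom; 0.080 with its own spread; -4.78 without experimental replicate 2 and -6.33 without experimental replicate 3). The C53G fragment 45-69 had 0.87, 0.96 and 0.60 CPM in experimental libraries and 21.3, 24.7 and 28 CPM in control libraries (log2 fold change -4.41, adjusted p = 3.2e-04 in limma voom; 0.032 with its own spread). Control libraries thus held mt-Tyr 3′ fragments over position 53 with the changed base, and experimental libraries mostly with the reference base.

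The most common last base of internal mt-Tyr reads was position 31, the end of the anticodon, in 55.1%, 46.4% and 65.1% of them in experimental libraries and 47.9%, 36.7% and 29.9% in control libraries, with overlap. Ends at position 43 were a smaller part in experimental libraries, 2.03% to 8.32%, than in control libraries, 10.9% to 22.6%. mt-Tyr-GTA 13-31 had 189, 84.8 and 147 CPM in experimental libraries and 52.3, 87.1 and 83.9 CPM in control libraries, with overlap (log2 fold change 0.86, adjusted p = 0.50 in limma voom). mt-Tyr-GTA 18-31 had 32, 24 and 64 reads in experimental libraries and 1, 6 and 0 in control libraries (log2 fold change 3.19, SE 0.99, adjusted p = 0.0086 in limma voom; 0.11 with its own spread). Its call was lost without control replicate 3 (log2 fold change 2.11) and with library totals, its log2 fold change was 3.87 without control replicate 2, and it could not be fitted without experimental replicate 1 or 3. The 3′ fragment mt-Tyr-GTA 56-69, which starts behind position 53, had 77.9, 39.5 and 77.6 CPM in experimental libraries and 71.6, 142 and 179 CPM in control libraries, with overlap (log2 fold change -0.97, adjusted p = 0.44 in limma voom).

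mt-Asn was the tRNA of the cluster with a steady mismatch in both groups. Bases A or G at position 9 of mitochondrial tRNAs are commonly methylated by TRMT10C, and such a base is often misread by reverse transcriptase. At position 9 of mt-Asn the reference A was read as another base on 87.8%, 79.1% and 84.2% of 622, 163 and 556 reads in experimental libraries and on 77.3%, 80.3% and 80.0% of 66, 229 and 90 reads in control libraries, with overlap. A9G made up 82.4% of these changes in experimental libraries and 79.8% in control libraries, and A9T most of the rest. The other 4 tRNAs had few reads over position 9. Pooled shares there were 24.3% of 37 reads in experimental libraries and 0% of 72 in control libraries for mt-Trp (Wilson upper bound 5.07%), and 18.1% of 83 and 14.3% of 42 for mt-Tyr. They were 13.5% of 52 in experimental libraries and 2.08% of 48 in control libraries for mt-Ala, and 1.43% of 70 and 0% of 12 for mt-Cys (Wilson upper bound 24.2%).

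**Figure D5:**
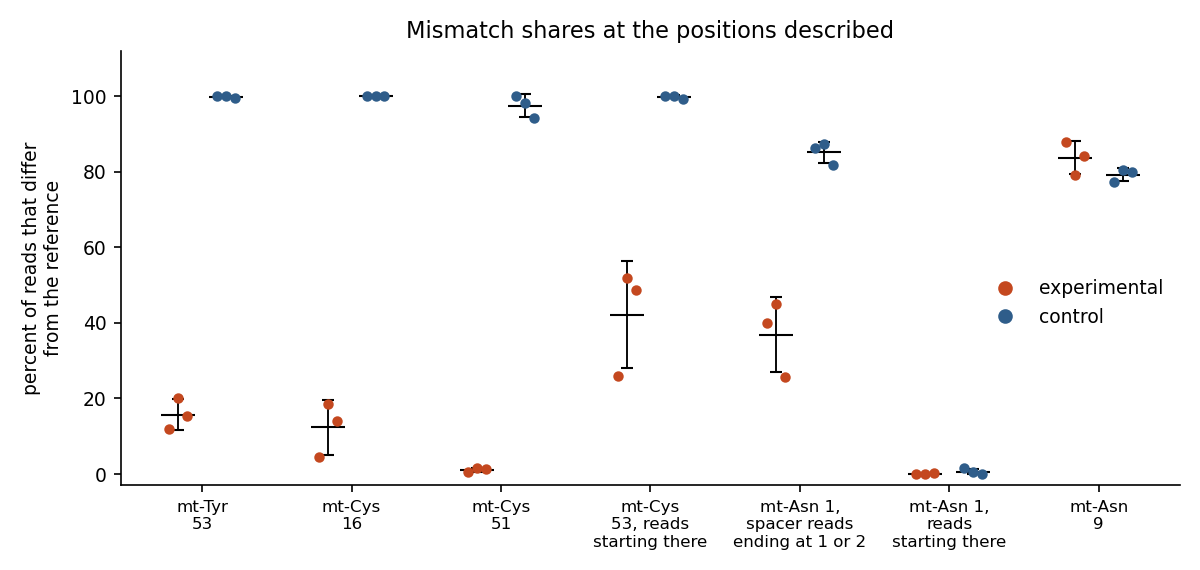
Percent of reads that differ from the reference at the positions described, experimental libraries left and control libraries right; points are libraries, and bars the mean and SD of 3. Control libraries lie between 94.1% and 100% at mt-Tyr 53 and mt-Cys 16, 51 and 53. The shares at mt-Cys 53 are of reads that start there, a small part of the experimental reads over it. Both groups lie between 77.3% and 87.8% at mt-Asn 9, and base 1 of mt-Asn differs in spacer reads that end there and hardly in reads that start there.

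The mt-Asn 5′ fragment that holds the changed base, and the tRNA's most abundant 3′ fragment, are printed with position 9 in capitals where it differs.
mt-Asn-GTT 1-28 A9G: tagattgaGgccagtaagtagggtattt
mt-Asn-GTT 40-75: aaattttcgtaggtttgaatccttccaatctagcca

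mt-Asn-GTT 1-28 A9G had 188, 50.1 and 90.8 CPM in experimental libraries and 25.2, 68.9 and 81.1 CPM in control libraries, with overlap (log2 fold change 0.86, adjusted p = 0.51 in limma voom). mt-Asn-GTT 40-75 had 27.7, 13.5 and 18.6 CPM in experimental libraries and 27.1, 92.3 and 44.8 CPM in control libraries (log2 fold change -1.35, adjusted p = 0.29 in limma voom). The end at position 28 was shared by both groups, on 42.9% to 49.6% of 5′ reads in experimental libraries and 35.0% to 47.8% in control libraries. The called higher sequences were mt-Asn-GTT 41-56 (log2 fold change 2.57, adjusted p = 0.040 in limma voom) and mt-Asn-GTT 41-60 (2.84, adjusted p = 0.023), and both overlapped between groups.

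mt-Ala had the fewest reads, and its most abundant fragment, mt-Ala-TGC 50-72, had 103, 49.1 and 105 CPM in experimental libraries and 31.0, 281 and 134 CPM in control libraries (log2 fold change -0.39, adjusted p = 0.78 in limma voom). It ends in the added CCA, as the leading mt-Trp fragment does.

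A pattern shared by mt-Ala, mt-Asn, mt-Cys and mt-Tyr was the balance of internal and 3′ fragments. Internal fragments, with both ends more than 2 bases from a mature end, were 42.6%, 43.2% and 37.2% of mt-Ala reads in experimental libraries and 5.71%, 9.04% and 11.3% in control libraries. The mature 3′ end is the last base of CCA, so reads that stop shortly before CCA count as internal. On mt-Ala, coverage fell from 390, 168 and 627 reads at position 65 to 243, 102 and 434 at position 68 in experimental libraries. In control libraries it went from 57, 533 and 144 to 57, 497 and 135. For mt-Asn they were 55.8%, 57.9% and 59.6% in experimental libraries and 40.3%, 33.4% and 36.4% in control libraries, and for mt-Tyr 70.8%, 77.2% and 69.8% in experimental libraries and 52%, 40.9% and 54.7% in control libraries. For mt-Cys, where the differing bases bear on which reads were kept, they were 66%, 67.3% and 72.9% in experimental libraries and 27.9%, 39.4% and 29.6% in control libraries. The 3′ fragments of these 4 tRNAs had the opposite order, without overlap.

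Of 18 tRNA and region pairs compared, 10 (55.6%) had no overlap, and each of the 10 had an exact permutation p of 0.1, the smallest possible, and 0.18 after Benjamini-Hochberg adjustment. None could pass 0.05. On mt-Trp internal reads were also a larger part in experimental libraries, 1.29% to 1.74%, than in control libraries, 0.744% to 0.883%, but 3′ fragments made up 68.4% to 89.5% in experimental libraries and 77.2% to 85.6% in control libraries, with overlap.

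Mature fragments were shorter in experimental libraries, apart from mt-Cys. Mean lengths were 20.7 to 20.8 nt for mt-Ala in experimental libraries and 23.3 to 25.2 nt in control libraries, and 25.3 to 26 nt for mt-Asn in experimental libraries and 27.6 to 29.3 nt in control libraries. On mature mt-Trp they were 16.9 to 17 nt in experimental libraries and 17.6 to 18.5 nt in control libraries. On mt-Tyr they were 18.6 to 20.56 nt in experimental libraries and 20.59 to 21.3 nt in control libraries. On mt-Cys the mean was 21.9 to 22.2 nt in experimental libraries and 19.6 to 20.03 nt in control libraries.

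Away from the positions named above, mismatches were rare. Of 260 positions with at least 30 reads in every library, 4 reached a mismatch share of 10% in any library and 2 reached 50%, position 9 of mt-Asn and position 53 of mt-Tyr. The median share over these positions and libraries was 0.108%. The groups did not overlap at 47 of the 260 (18.1%), with the experimental share higher at 41, and only position 53 of mt-Tyr had means at least 50 percentage points apart. A read with a changed base at a position named above could not be kept with another change. Where control reads carry such a base, this limit holds down their shares at other positions. Its part in the 41 was not tested. With 3 libraries a group none of the 260 could pass 0.05 in an exact permutation test. The other 2 positions above 10% were position 31 of mt-Tyr in the anticodon and the last spacer base, position 32. At position 31, 9.09%, 4.21% and 13.5% were changed in experimental libraries and 1.72%, 2.67% and 2.35% in control libraries, mostly A31G. At position 32, 8.28%, 20% and 19.7% were changed in experimental libraries and 2.20%, 1.45% and 1.55% in control libraries, all G32C. The last 2 bases of a read were left out, so reads counted at position 32 end at base 2 of mt-Asn or later. Most such control reads carried T33A and could not be kept with G32C as well. The shares at position 32 thus do not compare how often G32C occurred in the groups.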

How the data were processed

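Small RNA was sequenced from 6 rat muscle libraries, 3 experimental and 3 control. Per the labels' protocols, RNA was extracted with Trizol and libraries were made with a NEBNext small RNA kit. The authors' deposited table holds 123568 alignments of distinct sequences to mature tRNAs (CCA added) and precursors with 40-base flanks, at most 1 mismatch, with whole, unnormalized read counts per library, per the file headers; the aligner is not given in the sources used here, and the submitters' processing notes name mm9. A count test was replaced by limma voom because text lines interleaved in the table kept its columns from being recorded as counts. All counts equalled those in the read names of the per-library files. Depth was 316990 to 1927269 tRNA-aligned reads, and 3 counts equal 1.56 to 9.46 CPM of tRNA-aligned reads; Wilson intervals (95%) and such limits cover counting error only.

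Sequences worth at least 10 counts in the median library in 3 libraries, with 15 or more in all, were fitted with limma voom (R 4.3.3, limma 3.58.1; TMM factors, prior count 0.5), Benjamini-Hochberg adjusted over all 2226. CPM are scaled by these factors. Anticodon sums were fitted likewise, and shares were compared by two-sided exact permutation tests (Python 3.11.15). Named were the 2 most abundant places per tRNA, up to 2 higher and 2 lower calls without overlap, the 3 most abundant spacer sequences and positions at 50% or more. Ends within 2 bases of a mature end counted as that end. The fit was tested on simulated data. Same-numbered libraries did not deviate together (r = -0.30, -0.05 and 0.14), so no block was used. Alternatives were other scalings, filters, spreads, exact matches, summed mismatch forms and leaving out each library. The members and lists were chosen with earlier results of these data known.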

Additional observations from a re-analysis of the deposited data

How the results depend on the processing

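Depth limits tRNAs with few control reads, such as mt-Ala (70, 575 and 160 reads) and mt-Asn (248, 853 and 302), and reads with more than 1 difference are not in the table. The 14 higher and 44 lower cluster calls became 9 and 36 with library totals, 180 and 119 of 2897 with nearly no filter, 2 and 3 with each sequence's own spread, 31 and 23 of 170 with mismatch forms summed, and 13 and 14 of 99 with exact matches; median-of-ratios factors (13 and 47) and limma's trend test (16 and 43) changed them little. With a replicate block, pairing libraries by number, they were 13 and 40; the numbers pair no samples by the check of deviations. Without 1 library they ranged from 8 to 70 higher and 35 to 71 lower. Sums changed sign without passing a test: mt-Cys was 0.084 with the trend test, 0.037 with the replicate block, 1.27 with mature alignments, 1.04 with exact matches and 0.76 with sequences of 1 anticodon, mt-Asn 0.85, 0.29 and 0.36 under the last 3 of these, and mt-Ala 0.28 with the block. Without 1 library the sums ranged from -0.89 to 0.35 (mt-Trp), -0.77 to 0.71 (mt-Ala), -1.17 to 0.051 (mt-Asn), -0.50 to 0.88 (mt-Cys) and -0.98 to -0.20 (mt-Tyr). The cluster's share differed by 1.64 percentage points with mitochondrial reads as the base, and by -1.60 to 0.129 without 1 library. Region pairs without overlap stayed between 9 and 12, and positions without overlap were 25 of 133 at 100 reads, 91 of 307 with all bases, 27 of 159 with each sequence counted once, and 55 to 68 without 1 library. Among named fragments spacer 12-27 changed sign to -0.33 with library totals and -0.16 with median-of-ratios factors, and ranged from -0.83 to 0.55 without 1 library. mt-Trp-TCA 54-69 ranged from -1.01 to 0.29 and mt-Ala-TGC 50-72 from -1.22 to 0.31 in the same way. Own spreads lost 9 of 13 named calls, and the block only mt-Cys-GCA 25-53 T51C (adjusted p = 0.055 in limma voom). The cause of these shifts was not tested.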
